A study of Mus musculus with 7 samples.

Results

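Leukocytes in heart muscle were followed through 44 genes of the 56980 in the expression table, listed by name for their known place on or in white blood cells and above all in myeloid cells. The list held surface proteins carried by nearly all leukocytes, the growth factor receptors, integrins, Fc receptors and adapters of macrophages and their relatives, the kinases behind those receptors, the NADPH oxidase, receptors for microbial products and damaged cells, and widely used macrophage markers. All 44 were matched by symbol, and their FPKM (fragments scaled by the length of the gene and the size of the library) was above 0 in every mouse.

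Bulk RNA sequencing had been performed on myocardial tissues of 7 male C57BL/6J mice, obtained at 8 weeks of age and wild type by label. In the MI group (n = 3) the left coronary artery had been ligated and tissue was taken 4 days later, whereas the sham group (n = 4) had the operation without the ligation. Each mouse gave 1 library. The MI tissue is called ischemic in the study's text, while the labels name no part of the heart for either group. Mice are numbered within each group as in the labels. The series addresses what changes in heart muscle after infarction.

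The heart keeps a small resident population of macrophages, and after an infarct neutrophils and then monocytes enter from the blood, and monocytes turn into macrophages that clear dead muscle. Many of the genes described here are switched on by Spi1 (PU.1), the transcription factor that defines the myeloid lineage, and the survival of many macrophages depends on signals through Csf1r. Because whole tissue was sequenced, more cells of a type and more RNA per cell cannot be told apart in any value below.

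Depth was similar across mice, at 19977713 to 23473543 fragments in the sham group and 21781014 to 23610870 in the MI group. MI replicate 2 stood apart from the other MI mice. Over the 11431 genes tested, its profile correlated with the 4 sham profiles at r = 0.984 to 0.987, whereas those of MI replicates 1 and 3 did so at 0.878 to 0.881 and 0.903 to 0.906. Mitochondrial transcripts took 28.2% of its fragments, against 26.5% to 27.4% in sham mice and 13.6% and 14.9% in MI replicates 1 and 3. By these measures it was closer to the sham mice than to the mice that share its label, and whether the label describes the tissue sampled was not tested. Values over all 7 mice take the label as given, and the main counts of calls are given with and without this mouse. Cardiomyocyte markers were abundant in all mice, with a summed FPKM of 12278 to 13439 in the sham group and 8396, 12351 and 8804 in MI replicates 1, 2 and 3.

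All 44 genes were higher in MI replicates 1 and 3 than in any sham mouse, a pattern shown by 43.4% of the 30504 genes detected in any mouse. Of those 30504, between 22496 and 25754 were above 0 in a given mouse, whereas the 44 were above 0 in every mouse. Shares of detected genes, here and below, thus include many genes at 0 in some mice and are not shares of genes of like level. Relative to the sham mean, the median of the 44 ratios was 6.96 in MI replicate 1, 1.11 in MI replicate 2 and 5.44 in MI replicate 3. Over the 10858 tested genes with a sham mean of at least 1 FPKM, the ratio had a median of 1.35, 0.975 and 1.29 in these mice. The 44 were not held to that limit, and low genes such as Fgr and Ms4a7 had the largest ratios among them, so the sets are not alike in level. In MI replicate 2, 19 of the 44 lay above the sham range, 22 within it and 3 (Cd52, Csf1 and Btk) below it, beside 19.3%, 63.3% and 17.4% of all detected genes. In those 19, every MI mouse was above every sham mouse, as in 12.0% of detected genes. Added together, the 44 genes held 0.0516% to 0.0633% of the fragments of the sham mice and 0.328%, 0.0634% and 0.271% of those of MI replicates 1, 2 and 3.

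**Figure D1:**
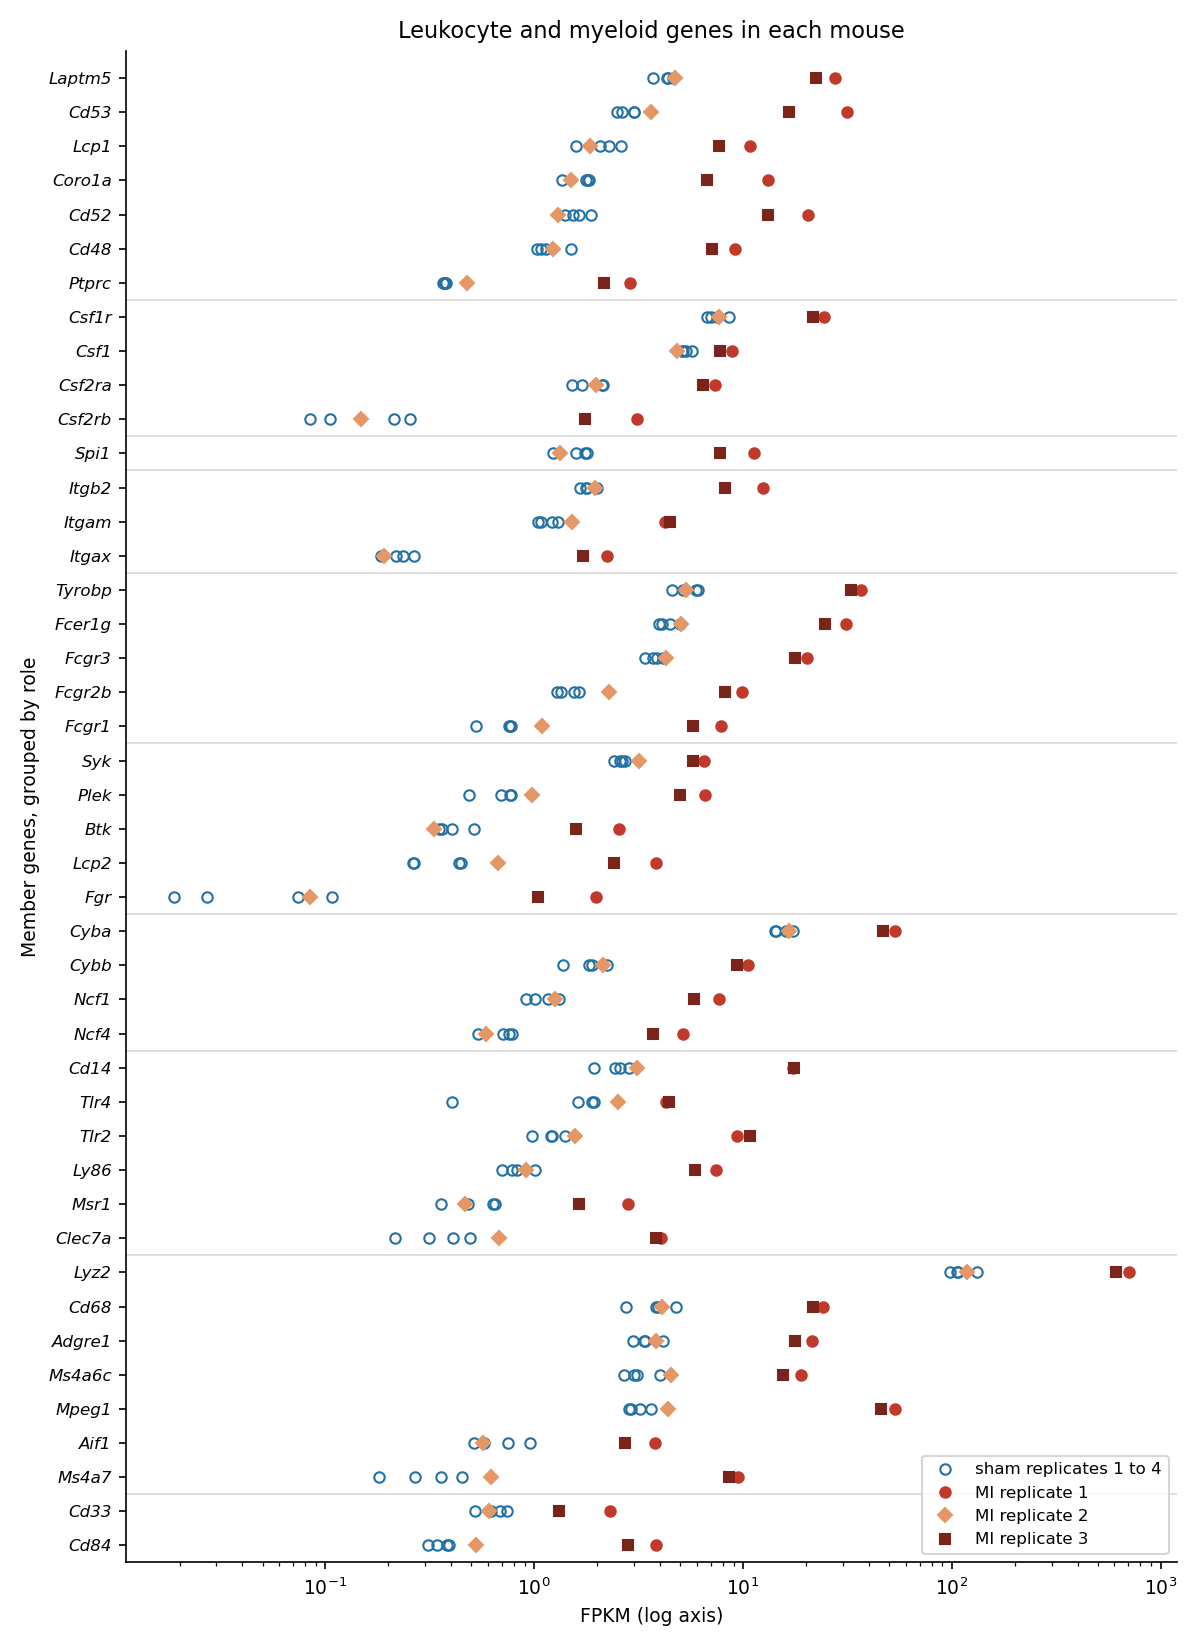
FPKM of the 44 genes in each mouse on a log axis, grouped by role and ordered within each role by the sham mean; open circles are the 4 sham mice and filled symbols the 3 MI mice. MI replicates 1 and 3 lie to the right of every sham mouse in all 44 rows, and MI replicate 2 lies among or close to the sham mice.

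Taking the 7 mice together, no member passed the test. The moderated test (limma) on log2(FPKM + 1) covered the 30 members that reached 1 FPKM in 3 or more mice, and their adjusted p-values ran from 0.108 to 0.189. Of all 11431 genes tested, 0.0175% were called higher at an adjusted p under 0.05. At an unadjusted p under 0.05, 29 of the 30 were higher and none was lower, where 29.5% of all genes tested were higher and 9.85% lower. Csf1 was the exception. The median log2 fold change of the 30 was 1.41, or 1.20 above the median gene, whose own value was 0.21. Of the 30, 28 had reached an FPKM of 1 in at least 3 sham mice, and Csf1 was also the only exception among those 28. Fcgr1 and Ly86 entered through the MI mice, so their part in the counts and the median above is a description.

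The same test without MI replicate 2 gave an increase for 30 of the 30 at an adjusted p under 0.05, where 57.0% of all genes tested were called higher. This count includes Fcgr1 and Ly86. The fit rests on MI replicates 1 and 3, in which all 44 members were already above every sham mouse. Leaving out a mouse that resembled the sham mice narrows the spread of the MI group, so p-values of this fit, here and below, are a description. The highest adjusted p of the 30 was then 0.0093 (Tlr4), and the median log2 fold change was 2.06, which is 1.74 above the median gene of that fit. The 14 members below the filter were Ptprc, Csf2rb, Itgax, Btk, Fgr, Lcp2, Plek, Ncf4, Clec7a, Msr1, Aif1, Ms4a7, Cd33 and Cd84. With no filter, all 44 could be tested among 30504 genes. Then 0 passed at an adjusted p under 0.05, as 0.0656% of genes did, and 38 at an unadjusted p, as 20.6% did, and the 44 had a median log2 fold change of 1.32 against 0.06 for all genes. With no filter and without MI replicate 2, 44 of 44 passed at an adjusted p under 0.05 (at most 0.0369), where 35.8% of genes did, and the median was 1.96.

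**Figure D2:**
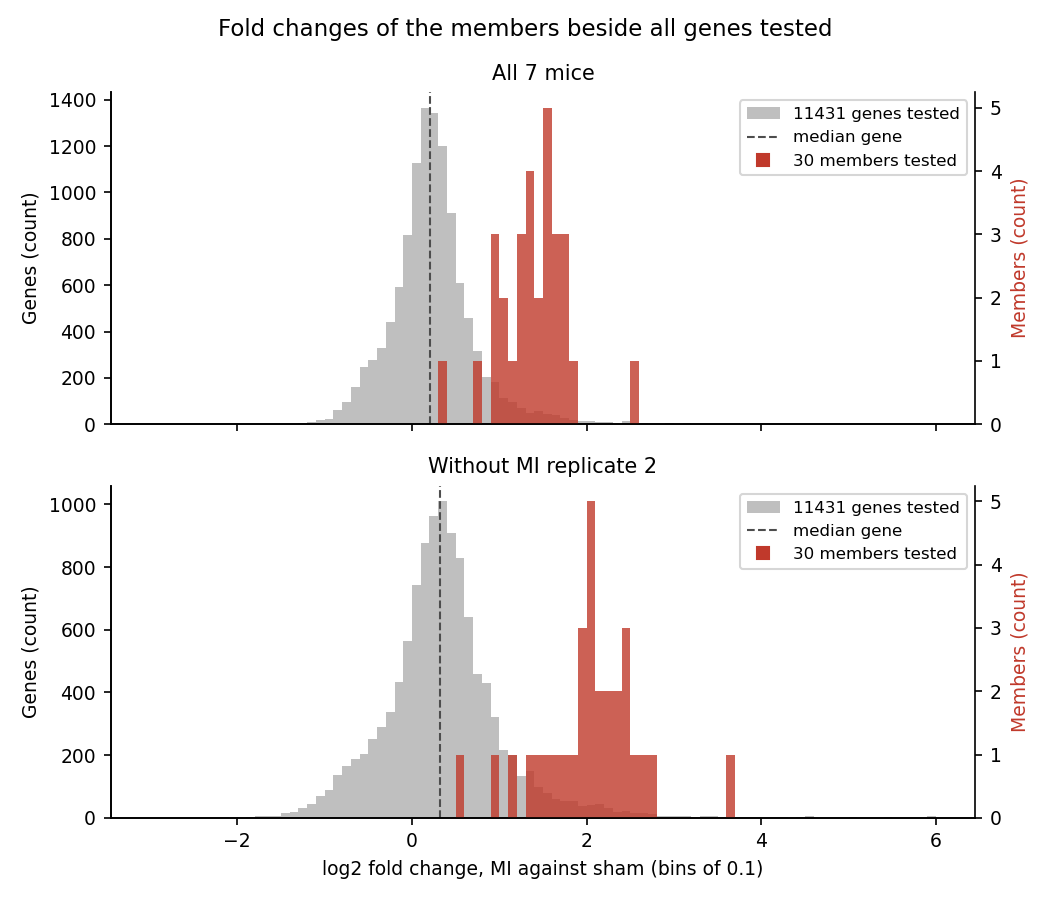
Log2 fold changes of MI against sham for all 11431 genes tested (grey, left axis, values beyond −3 and 6 counted in the end bins) and for the 30 members tested (red, right axis), with all 7 mice above and without MI replicate 2 below; the dashed line is the median gene. The members' median is 1.41 in the upper panel and 2.06 in the lower, against 0.21 and 0.33 for all genes.

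The pan-leukocyte genes code for proteins of the membrane or cytoskeleton that lymphocytes carry as well as myeloid cells. Ptprc (CD45, ENSMUSG00000026395, chr1:138062861-138175708 of GRCm38, minus strand), the phosphatase that marks leukocytes, had 0.379, 0.368, 0.367 and 0.375 FPKM in the sham mice and 2.86, 0.475 and 2.15 in MI replicates 1, 2 and 3. All 3 MI mice were above all 4 sham mice, whose spread was small (SD 0.0058 around a mean of 0.372). Ptprc fell below the filter, and with no filter its log2 fold change was 0.93 (unadjusted p = 0.0213, adjusted p = 0.188 by limma). Cd53, a tetraspanin of leukocyte membranes, had 2.50 to 3.02 FPKM in the sham group and 31.3, 3.63 and 16.5 in the MI group. Cd52, a short GPI-anchored glycopeptide, had 1.40 to 1.88 FPKM in sham mice and 20.5, 1.29 and 13.1 in MI mice, so MI replicate 2 lay below every sham mouse. Laptm5, a lysosomal membrane protein of blood cells, had 3.70 to 4.63 and then 27.4, 4.71 and 22.3 FPKM. Of the 7 genes of this role, 3 (Ptprc, Cd53 and Laptm5) had no overlap between the groups, beside 12.0% of detected genes. The other 3 tested genes, Cd48 (a SLAM family ligand), Coro1a and Lcp1 (both binders of actin), had log2 fold changes of 1.38, 1.27 and 1.09. In this role 6 genes were tested, and all 6 were higher at an unadjusted p under 0.05 (adjusted p 0.108 to 0.120), beside 29.5% of all genes tested. Without MI replicate 2 all 6 rose, beside 57.0% of all genes tested, with a median log2 fold change of 2.18 and adjusted p-values of at most 2.3e-04.

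Colony-stimulating factors keep macrophages alive and drive their numbers. Csf1r, the receptor for Csf1, had 8.52, 7.01, 6.73 and 7.46 FPKM in the sham mice and 24.5, 7.68 and 21.6 in the MI mice. It was the third most abundant member in sham hearts. Its log2 fold change was 1.03 (SE 0.35, adjusted p = 0.108 by limma), and 1.51 without MI replicate 2 (adjusted p = 2.4e-05). The ligand Csf1, which many tissue cells secrete, had the smallest ratio of the 44. Its FPKM was 5.09, 5.71, 5.16 and 5.34 in sham mice and 8.88, 4.81 and 7.72 in MI mice, a log2 fold change of 0.33 (SE 0.18, unadjusted p = 0.107, adjusted p = 0.189 by limma). MI replicate 2 was below all 4 sham mice, and without it the log2 fold change was 0.55 (adjusted p = 5.3e-04). Csf2ra, the ligand-binding chain of the GM-CSF receptor, had 1.52 to 2.13 FPKM in sham mice and 7.35, 1.98 and 6.40 in MI mice. Csf2rb, the chain shared with the receptors of interleukin-3 and interleukin-5, had 0.105, 0.254, 0.0846 and 0.212 FPKM in the sham mice, which rested on 26, 61, 22 and 47 fragments. It reached 3.10 and 1.75 FPKM in MI replicates 1 and 3 and stayed at 0.147 in MI replicate 2, so the ratio of group means was 10.2 and the groups overlapped.

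Spi1 (ENSMUSG00000002111, chr2:91082390-91115756 of GRCm38, plus strand), the lineage factor itself, had 1.75, 1.58, 1.22 and 1.79 FPKM in the sham mice and 11.3, 1.32 and 7.75 in the MI mice. MI replicate 2 lay inside the sham range. The log2 fold change was 1.29 (SE 0.52, adjusted p = 0.117 by limma) and 2.01 without that mouse (adjusted p = 4.2e-05).

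Spi1 binds a purine-rich word with GGAA at its heart, so the promoters of the members were searched for it. RefSeq promoters on GRCm38.p6 were at hand for 33 of the 44 members, and the 250 bases before each start were read on both strands. The short word AGGAAG, or its complement CTTCCT, stood in 14 of the 33, or 42.4%, against 32.3% of 27025 genes. The long word GAGGAAGT, which contains the short one, stood in 0 of the 33 and in 2.79% of all genes. The letters of the TATA box, written TATAAA, stood in 2 of the 33 (Laptm5 and Ptprc), or 6.06%, against 14.3% of all genes. The letters of the GC box, written GGGCGG, stood in 9, or 27.3%, against 35.4%. These matches are a description of letters and not of binding. One window each from a pan-leukocyte gene, an integrin, an Fc receptor chain and the most abundant and one further macrophage gene is shown on the strand of the gene, cut where transcription starts, with 1 match to the short word or its complement in capitals. A second match, near the left end of the Lyz2 window, is in lower case. They are chr1:138175373-138175458 for Ptprc, chr7:128062517-128062602 for Itgam, chr1:171234350-171234433 for Fcer1g, chr10:117282326-117282411 for Lyz2 and chr19:11469311-11469367 for Ms4a6c, on the plus strand for Itgam and Ms4a6c and on the minus strand for the others.
Ptprc: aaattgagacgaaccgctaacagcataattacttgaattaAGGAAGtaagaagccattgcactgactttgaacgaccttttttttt
Itgam: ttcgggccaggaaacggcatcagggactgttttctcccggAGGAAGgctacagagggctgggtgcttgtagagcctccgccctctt
Fcer1g: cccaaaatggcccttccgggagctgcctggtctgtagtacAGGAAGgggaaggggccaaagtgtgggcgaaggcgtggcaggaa
Lyz2: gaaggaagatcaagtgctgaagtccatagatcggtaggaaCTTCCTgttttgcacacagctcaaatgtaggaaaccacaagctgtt
Ms4a6c: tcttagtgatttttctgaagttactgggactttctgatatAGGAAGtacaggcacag

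Integrins of the beta-2 family let leukocytes grip the vessel wall and swallow opsonized particles. Itgam (CD11b) had 1.08, 1.31, 1.04 and 1.22 FPKM in the sham mice and 4.21, 1.51 and 4.49 in the MI mice. Every MI mouse was above every sham mouse, and the log2 fold change was 0.95 (SE 0.27, adjusted p = 0.108 by limma). Itgam shares 3450 exon bases on the same strand with the gene model Gm49368, so its level depends on how reads were split between them. Itgax (CD11c) had 0.185 to 0.264 FPKM in sham mice, on 23 to 28 fragments, and 2.23, 0.192 and 1.72 in MI mice. Itgb2, the beta chain that both partner with, had 1.66 to 1.99 FPKM in sham mice and 12.5, 1.96 and 8.21 in MI mice. Without MI replicate 2, the log2 fold changes of Itgam and Itgb2 were 1.31 and 1.99 (adjusted p = 1.5e-05 and 3.5e-05).

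Fc receptors bind antibody, and Fcer1g and Tyrobp are the adapters whose ITAM motifs pass on the signal. Fcgr1, the high-affinity receptor for IgG, had 0.764, 0.758, 0.525 and 0.772 FPKM in sham mice and 7.82, 1.09 and 5.73 in MI mice. Fcgr2b, the inhibitory receptor, had 1.55, 1.64, 1.34 and 1.28 FPKM in sham mice and 9.88, 2.29 and 8.22 in MI mice, with the lowest unadjusted p of the 30 tested members (0.0053, adjusted p = 0.108 by limma). Fcgr3, an activating receptor, had 3.39 to 4.12 FPKM in sham mice and 20.2, 4.28 and 17.7 in MI mice. These 3 genes and Fcer1g (3.95 to 5.00 FPKM in sham mice, 31.0, 5.06 and 24.7 in MI mice) had no overlap between the groups, which makes 4 of the 5 genes of the role, beside 12.0% of detected genes. For Fcer1g the margin of MI replicate 2 over the highest sham mouse was 5.06 against 5.00. Tyrobp had 4.59 to 6.08 FPKM in sham mice and 36.7, 5.33 and 33.0 in MI mice, and MI replicate 2 was within the sham range. The log2 fold changes of the 4 genes that did not enter the test through the MI mice were 1.43 (Fcgr3) to 1.67 (Fcer1g), and that of Fcgr1 was 1.55. Without MI replicate 2 those 4 genes rose by 2.03 (Fcgr2b) to 2.48 (Tyrobp) on the log2 scale, with adjusted p-values of at most 7.4e-06, beside 57.0% of all genes tested that rose. The log2 fold change of Fcgr1 was then 2.18, which is given as a description.

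Kinases and adapters that relay these signals were mostly low in sham hearts, and only Syk of the 5 was tested. Syk, the kinase recruited by ITAM motifs, had 2.42 to 2.72 FPKM in sham mice and 6.48, 3.16 and 5.73 in MI mice. Each MI mouse was above the sham range, but the log2 fold change was 0.73 (SE 0.20, adjusted p = 0.108 by limma), the lowest of the tested members after Csf1, and 0.99 without MI replicate 2 (adjusted p = 3.1e-05). Fgr, a kinase of the Src family in myeloid cells, had 0.0189, 0.107, 0.0270 and 0.0741 FPKM in the sham mice, on 2, 11, 3 and 7 fragments. It had 1.98, 0.0841 and 1.04 FPKM in the MI mice, on 204, 9 and 116 fragments, and its ratio of 34.9 to the sham mean was the largest of MI replicate 1. Lcp2 (SLP-76) and Plek (pleckstrin) had ratios to the sham mean of 10.9 and 9.67 in MI replicate 1 and of 1.90 and 1.44 in MI replicate 2, above every sham mouse. Btk, a kinase of B cells and myeloid cells, had 0.352 to 0.514 FPKM in sham mice and 2.55, 0.332 and 1.58 in MI mice. It was the only one of the 5 with MI replicate 2 below the sham range.

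The NADPH oxidase of phagocytes, which makes superoxide, is built from the membrane subunits Cybb and Cyba and cytosolic subunits that include Ncf1 and Ncf4. Cyba, which many cell types also use with other oxidases, was the second most abundant member. It had 17.4, 16.0, 14.2 and 14.3 FPKM in sham mice and 53.4, 16.6 and 46.6 in MI mice. Cybb, the catalytic subunit, had 1.38 to 2.23 FPKM in sham mice and 10.5, 2.14 and 9.36 in MI mice. Ncf1 (p47phox) had 0.911 to 1.31 FPKM in sham mice and 7.67, 1.25 and 5.85 in MI mice, and Ncf4 (p40phox) had 0.539 to 0.784 and then 5.14, 0.589 and 3.71. MI replicate 2 was inside the sham range for all 4 subunits. The 3 tested subunits had a median log2 fold change of 1.29 (adjusted p = 0.108 by limma for each), and rose without that mouse, as 57.0% of all genes tested did, with a median of 1.88.

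Pattern recognition receptors sense microbial and damage-derived molecules. Tlr2 had 1.20, 0.979, 1.40 and 1.21 FPKM in sham mice and 9.34, 1.57 and 10.8 in MI mice, so it was above the sham range in each MI mouse and higher in MI replicate 3 than in MI replicate 1. Tlr4, the endotoxin receptor, had 1.88, 1.93, 0.403 and 1.61 FPKM in sham mice and 4.29, 2.52 and 4.42 in MI mice. The third sham mouse was far below the others, with 64 fragments against 218 to 285. Cd14, the co-receptor of both, had 1.94 to 2.85 FPKM in sham mice and 17.4, 3.10 and 17.5 in MI mice, with a log2 fold change of 1.70 (SE 0.51, adjusted p = 0.108 by limma), and 2.42 without MI replicate 2 (adjusted p = 6.0e-06). Clec7a (dectin-1), the receptor for beta-glucan, had 0.215 to 0.492 FPKM in sham mice and 4.02, 0.677 and 3.81 in MI mice. These 4 genes had no overlap between the groups, beside 12.0% of detected genes. Ly86 (MD-1), the partner of a toll-like receptor homologue, and the scavenger receptor Msr1 had MI replicate 2 within the sham range, at 0.914 and 0.465 FPKM. Ly86 had 7.44 and 5.90 FPKM in MI replicates 1 and 3, and Msr1 had 2.81 and 1.63.

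Macrophage markers held both the most abundant member and the member with the largest ratio of group means. Lyz2 (lysozyme, ENSMUSG00000069516, chr10:117277331-117282321 of GRCm38, minus strand) had 131, 106, 98.4 and 108 FPKM in sham mice and 707, 119 and 613 in MI mice. It alone made up 52.1% to 56.8% of the summed FPKM of the 44 genes in every mouse. Its log2 fold change was 1.75 (SE 0.58, adjusted p = 0.108 by limma) and 2.57 without MI replicate 2 (adjusted p = 7.7e-06). Mpeg1 (perforin-2, ENSMUSG00000046805, chr19:12460779-12465283, plus strand) had 3.62, 3.21, 2.83 and 2.91 FPKM in sham mice and 53.2, 4.35 and 45.7 in MI mice. Each MI mouse was above the sham range, and the log2 fold change of 2.53 (SE 0.75, adjusted p = 0.108 by limma) was the largest of the 30 tested members, as was the 3.61 without MI replicate 2 (adjusted p = 1.1e-06). Ms4a7, a tetraspan protein of macrophages (ENSMUSG00000024672, chr19:11321039-11336146, minus strand), had 0.449, 0.357, 0.268 and 0.180 FPKM in sham mice and 9.48, 0.620 and 8.61 in MI mice. With 20 to 56 fragments in sham mice it fell below the filter, and the ratio of group means was 19.9. Its relative Ms4a6c had 2.69 to 4.02 FPKM in sham mice and 19.0, 4.50 and 15.5 in MI mice. Mpeg1, Ms4a7 and Ms4a6c had no overlap between the groups, beside 12.0% of detected genes. Cd68, a lysosomal glycoprotein, had 2.74 to 4.80 FPKM in sham mice and 24.0, 4.10 and 21.6 in MI mice. Adgre1 (F4/80) had 2.96 to 4.14 and then 21.3, 3.84 and 17.7, and Aif1 (IBA1) had 0.515 to 0.949 and then 3.78, 0.565 and 2.71. For Cd68, Adgre1, Aif1 and Lyz2, MI replicate 2 was within the sham range. The 5 tested markers had a median log2 fold change of 1.58, and all 5 rose without MI replicate 2, beside 57.0% of all genes tested, with a median of 2.32.

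Of the other surface receptors, Cd33, an inhibitory lectin of myeloid cells, had 0.519 to 0.743 FPKM in sham mice and 2.32, 0.610 and 1.32 in MI mice. Cd84, a self-binding SLAM receptor, had 0.309 to 0.389 FPKM in sham mice and 3.82, 0.527 and 2.81 in MI mice, above the sham range in each. Both were below the filter.

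Several members lie beside each other in the genome. With a gap of at most 1000000 bases, 14 of the 44 fell into 5 neighbourhoods of GRCm38, and members stood on 17 chromosomes in all. Fcgr2b, Fcgr3, Fcer1g, Cd48 and Cd84 lie at chr1:170958617-171890718. Ms4a7, Ms4a6c and Mpeg1 lie at chr19:11321039-12465283, and their ratios in MI replicate 1 were 30.2, 5.93 and 16.9, so neighbours differed in size of change. Itgam and Itgax (chr7:128062640-128150657), Ncf4 and Csf2rb (chr15:78244801-78353847) and Cd53 and Csf1 (chr3:106759921-107760469) made up the rest. Cd53 and Csf1 had ratios of 11.2 and 1.67 in MI replicate 1.

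The size of the difference between MI replicates 1 and 3 was not the same for all members. Of the 44, 40 were higher in MI replicate 1, with a median ratio of 1.26, where 63.3% of 12358 genes with at least 1 FPKM in both mice were higher and the median ratio was 1.05. Coro1a (1.95), Fgr (1.91), Cd53 (1.89), Csf2rb (1.78) and Cd33 (1.76) had the largest excess in MI replicate 1. Tlr2 (0.865), Itgam (0.938), Tlr4 (0.972) and Cd14 (0.994) were lower there than in MI replicate 3. By role the median of this ratio ran from 1.02 (pattern recognition) to 1.59 (kinases and adapters). It was 1.42 over the 7 pan-leukocyte genes and 1.17 over the 7 macrophage markers.

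**Figure D3:**
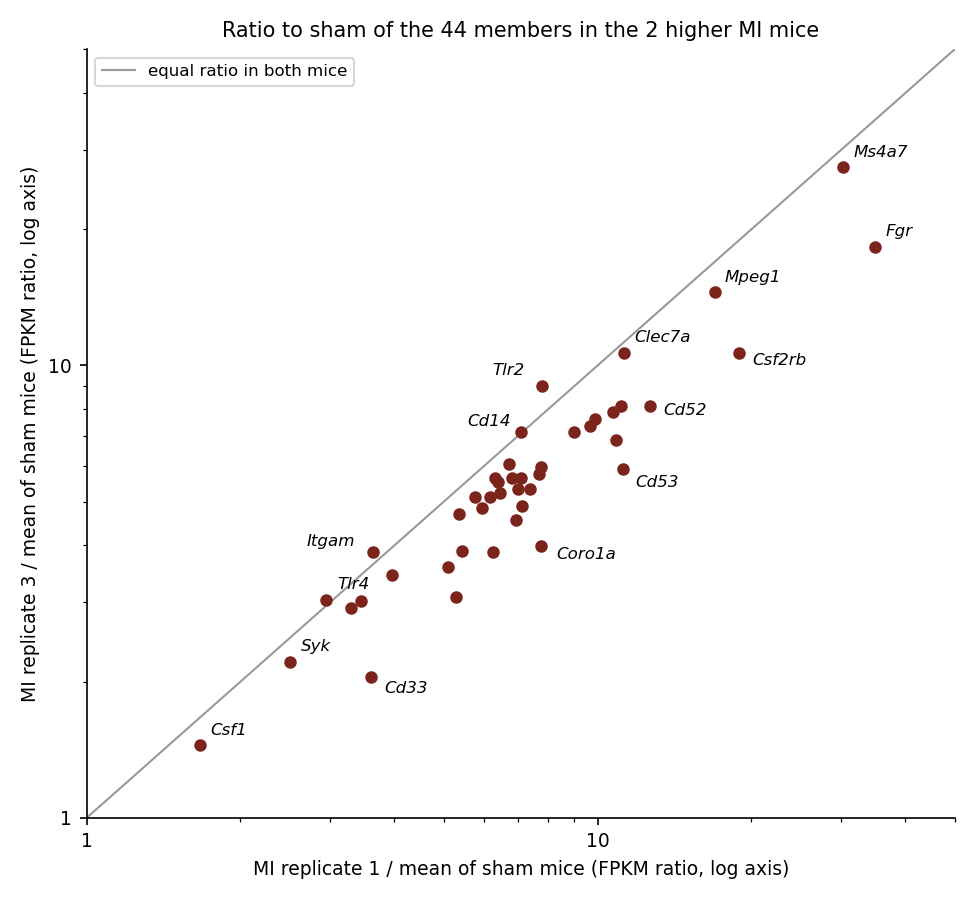
Ratio of FPKM to the sham mean for each of the 44 genes in MI replicate 1 (horizontal) and MI replicate 3 (vertical), both on log axes, with a line of equal ratios. Csf1 is nearest to 1 in both mice (1.67 and 1.45), Ms4a7 (30.2 and 27.5) and Fgr (34.9 and 18.3) are farthest, and 40 of 44 points lie below the line.

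Markers of other blood cells differed between the same mice. The summed FPKM of 8 B cell genes was 0.856 to 1.14 in sham mice and 39.9, 0.704 and 6.53 in MI replicates 1, 2 and 3. For 4 plasma cell genes it was 6.00 to 6.69 in sham mice and 72.2, 6.31 and 21.9 in MI mice. For 10 T cell genes it was 0.941 to 1.33 and then 11.4, 1.78 and 7.06, and for 7 NK cell genes 0.289 to 0.554 and then 3.80, 0.457 and 1.83. The excess of MI replicate 1 over MI replicate 3 was thus larger for B cell genes than for any of the 44 members, and Cd79a alone, a chain of the B cell receptor, had 16.9 and 2.30 FPKM in these mice. The 12 neutrophil genes summed to 0.355 to 1.37 FPKM in sham mice and 19.5, 0.519 and 8.16 in MI mice, with Ly6g listed at 0 in every mouse and S100a9 at 7.69, 0.121 and 3.08. The 8 dendritic cell genes summed to 2.27 to 2.39 and then 9.58, 2.31 and 8.51. No gene of the neutrophil, T, B or NK cell lists passed the filter. Ptprc, Cd53, Cd52, Cd48, Coro1a and Lcp1 are also expressed by lymphocytes, and the part these cells had in the members' values was not tested. Red cell genes summed to 371 to 774 FPKM in sham mice and 2390, 591 and 1014 in MI mice, and 5 platelet genes to 9.51 to 11.1 and 24.2, 10.1 and 11.8. Fibroblast genes summed to 122 to 145 FPKM in sham mice and 2492, 232 and 1923 in MI mice, and endothelial genes to 124 to 146 and 164, 118 and 174. Mast cell genes summed to 2.76 to 4.58 and then 8.27, 3.92 and 5.90, eosinophil and basophil genes to 0 to 0.119 and then 0.400, 0 and 0.160 with Epx and Mcpt8 listed at 0, and genes of lymph node stroma and thymus to 18.1 to 22.4 and then 76.0, 31.3 and 59.3 with Foxn1 listed at 0. The part of these tissues, or of blood left in the heart, in the members' values was not tested.

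**Figure D4:**
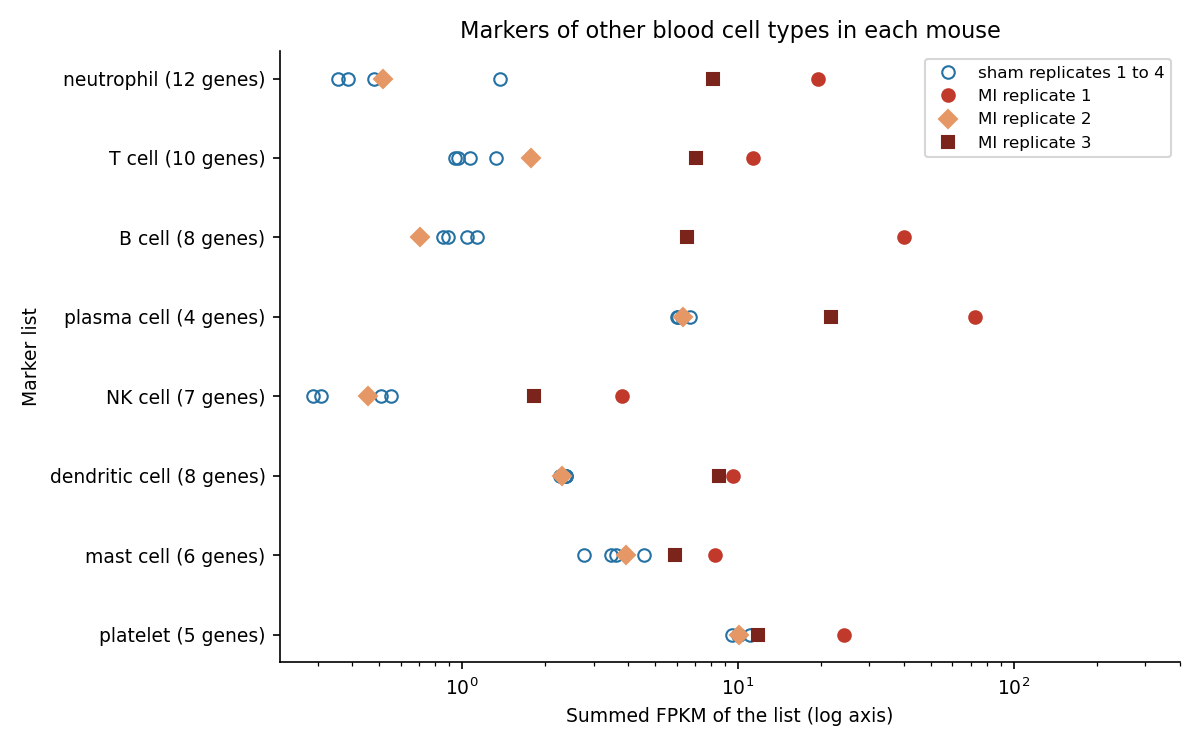
Summed FPKM of 8 lists of marker genes for other blood cell types in each mouse on a log axis, with open circles for the 4 sham mice and filled symbols for the 3 MI mice. MI replicate 1 is highest in every list, with 39.9 for B cell genes against 6.53 in MI replicate 3.

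The ratio of one member to another within a mouse was compared between the groups for 14 pairs, on log2(FPKM + 1) and, chosen after seeing the data, on plain FPKM, where the scaling of the library cancels. With 4 against 3 mice the smallest p of the exact two-sided permutation test is 0.0571, so no pair could pass 0.05. On the log2(FPKM + 1) scale, Ncf1 over Ncf4 was the only pair without overlap, at 0.23 to 0.37 in sham mice and 0.50, 0.50 and 0.54 in MI mice (exact p = 0.0571, adjusted over the 14 pairs p = 0.400). The added 1 compresses genes below 1 FPKM, and on plain FPKM this pair overlapped, at 1.42 to 1.69 in sham mice and 1.49, 2.13 and 1.58 in MI mice (exact p = 0.629). On plain FPKM 4 other pairs had no overlap, each with an exact p of 0.0571 and an adjusted p of 0.200. Clec7a over Syk, receptor over kinase, was 0.0788 to 0.191 in sham mice and 0.621, 0.214 and 0.665 in MI mice. Cybb over Cyba, catalytic over stabilizing subunit, was 0.0971 to 0.128 and then 0.197, 0.129 and 0.201. For this pair MI replicate 2 was barely above the highest sham mouse, at 0.1288 against 0.1283. Fcgr1 over Fcer1g, receptor over signalling chain, was 0.133 to 0.185 and then 0.252, 0.215 and 0.232, and Fcgr2b over Fcgr3, inhibitory over activating receptor, was 0.312 to 0.446 and then 0.490, 0.535 and 0.464. On log2(FPKM + 1) these 4 had exact p-values of 0.114 to 0.571. On that scale Fcgr1 over Fcer1g changed direction, with a mean log2 difference of -0.12 against 0.54 on plain FPKM. Fcgr2b over Fcgr3 changed direction there when MI replicate 2 was left out.

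The other pairs overlapped on both scales. Csf1r over Csf1 was 1.23 to 1.67 in sham mice and 2.76, 1.60 and 2.80 in MI mice (exact p = 0.114 on both scales). Tyrobp over Fcer1g stayed between 1.05 and 1.36 in all 7 mice. Adgre1 over Ptprc was 8.06 to 10.9 in sham mice and 7.46, 8.09 and 8.26 in MI mice, and Spi1 over Ptprc was 3.34 to 4.76 and then 3.94, 2.78 and 3.61. For these last 2 the mean log2 difference was -0.22 and -0.31 on plain FPKM but 0.58 and 0.36 with the added 1. Tlr2 over Tlr4 and Cd14 over Tlr4 were highest in the third sham mouse, at 3.47 and 4.80, where Tlr4 was low.

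**Figure D5:**
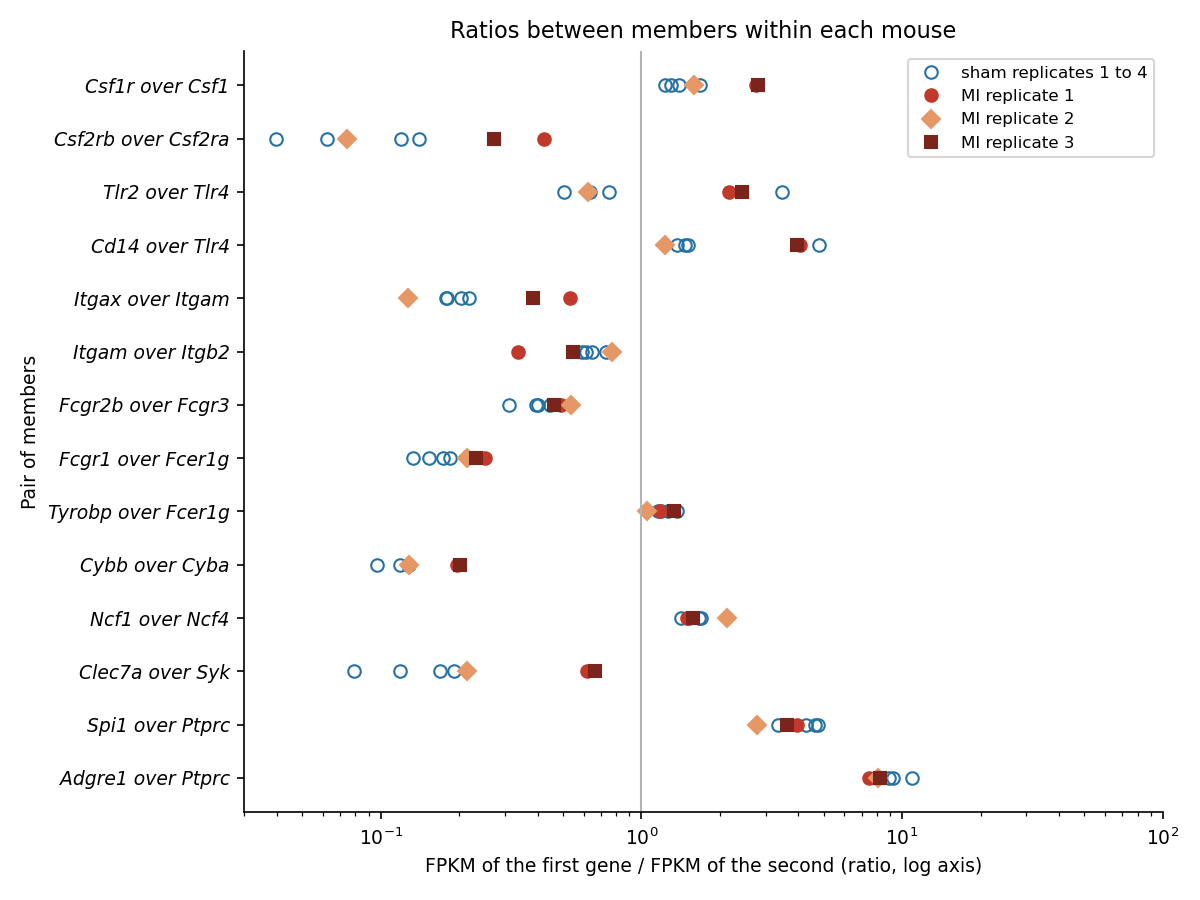
FPKM of the first gene divided by that of the second for 14 pairs of members in each mouse, on a log axis with no pseudocount, open circles for sham and filled symbols for MI mice. Clec7a over Syk is 0.0788 to 0.191 in sham mice and 0.214 to 0.665 in MI mice, whereas Tyrobp over Fcer1g lies between 1.05 and 1.36 in all mice.

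Other genes of the same pathways were read beside the 44. Of 83 such genes, 43 were tested, 32 were higher and 1 lower at an unadjusted p under 0.05, beside 29.5% and 9.85% of all genes tested, and 0 passed at an adjusted p under 0.05. Without MI replicate 2, 36 rose and 1 fell, where 57.0% of all genes tested rose and 14.7% fell. Of the 43, 33 had at least 1 FPKM in at least 3 sham mice, and 24 of these were higher at an unadjusted p. The other 10, among them Il34, Rac2, Irak3 and Fcgr4, passed the filter only with the MI mice, so their differences and the counts by list below are a description. Without MI replicate 2, the genes named below other than these 4 passed at adjusted p-values of at most 0.0026 (Cyb5r4), with log2 fold changes up to 2.14 (Unc93b1) and of -0.65 for Mitf. Among genes of the colony-stimulating factor axis 3 of 4 tested were higher at an unadjusted p, beside 29.5% of all genes tested. Il34, the second ligand of Csf1r, had 0.811 to 1.13 FPKM in sham mice and 2.27, 1.31 and 2.40 in MI mice (log2 fold change 0.61), and the adapter Gab2 had 3.90 to 4.25 and then 10.8, 4.47 and 12.7 (0.91). Flt3l, a growth factor of dendritic cells, had 1.07 to 1.27 and then 2.33, 1.19 and 2.12.

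In ITAM signalling, 8 of 10 tested genes were higher at an unadjusted p, beside 29.5% of all genes tested, and 6 of these 8 had at least 1 FPKM in at least 3 sham mice. The inhibitory phosphatases Ptpn6 and Inpp5d had log2 fold changes of 1.45 and 0.82. All 3 tested partners of the NADPH oxidase were higher at an unadjusted p, beside the same 29.5%. Rac2, the GTPase of blood cells, had 0.821 to 1.13 FPKM in sham mice and 9.48, 1.13 and 5.78 in MI mice (1.45), against 0.48 for the ubiquitous Rac1 and 0.36 for Cyb5r4.

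Of 8 tested genes around the toll-like receptors 6 were higher at an unadjusted p, beside 29.5% of all genes tested. In that list only 3 of the 8 had at least 1 FPKM in at least 3 sham mice, and all 3 were higher. The 6 included Irak3, a brake on the signal (0.437 to 0.771 FPKM in sham mice, 1.60, 1.03 and 1.71 in MI mice), Unc93b1, which carries receptors to endosomes (log2 fold change 1.44), and Lbp, which hands endotoxin to Cd14 (0.75). Of integrin partners 4 of 5 were higher, beside the same 29.5%, with Vcam1 and Icam1, which leukocyte integrins bind on other cells, at 1.28 and 1.06 and the integrin activator Fermt3 at 0.91. Both tested Fc receptor genes were higher at an unadjusted p, beside the same 29.5%, and of them Fcgrt had at least 1 FPKM in the sham mice. Fcgr4 had 0.407 to 0.639 FPKM in sham mice and 14.1, 1.30 and 9.95 in MI mice (log2 fold change 2.24), and Fcgrt, which recycles IgG in many cell types, had 12.6 to 13.5 and then 24.5, 14.0 and 27.4 (0.64). Among 11 tested myeloid transcription factors, 6 were higher and 1 lower at an unadjusted p, beside 29.5% and 9.85% of all genes tested. Without MI replicate 2, 7 of the 11 rose and 1 fell, beside 57.0% and 14.7% of all genes tested. Cebpd had a log2 fold change of 0.93, and Mitf was the lower gene (4.91 to 5.89, then 2.92, 4.93 and 3.32, a log2 fold change of -0.48).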

How the data were processed

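Myocardial RNA of 7 mice was sequenced, 1 library each, and groups were taken from the labels. The authors deposited FPKM for 56980 Ensembl genes, normalized by gene length and library size. The submitters' notes name CASAVA 1.8, HISAT2, SAMtools 1.3.1, edgeR and the mm10 build. The annotation and the use of strand in counting are not given in the sources used here. All columns were used.

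Symbols and positions came from GENCODE M21 (GRCm38), which held 52073 identifiers (91.4%). Whole fragments were recovered from the steps of the FPKM values for 30503 of 30504 detected genes (tolerance 0.002 of a fragment plus 1e-07 per fragment), a step tested on simulated data. Log2(FPKM + 1) of the 11431 genes with at least 1 FPKM in at least 3 mice was tested with limma 3.58.1 (lmFit, eBayes with trend, R 4.3.3), MI against sham without covariates, with Benjamini-Hochberg adjustment over all genes tested. The pseudocount of 1 makes fold changes of low genes smaller. The paper's methods name general tests for differences between groups, chosen by normality, and none for the sequencing data in particular. The test was checked on simulated data. Pairs of members were compared with exact permutation tests over 35 splits. Nothing in the labels states more than 1 experiment, so p-values measure the spread between these mice. At this depth a value below 0.1 FPKM can rest on fewer than 10 fragments, as for Fgr. Promoter sequences are RefSeq's (GRCm38.p6).

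All 44 members are named, with up to 3 tested genes of lowest p from each list of other pathway genes and the defining genes of marker lists. Of these, 2 pathway genes are not reported here. The members and lists were chosen with earlier results of these data known. Other settings tried were another pseudocount, no filter, rescaling to TPM, quantile and median log-ratio scaling, leaving out mitochondrial genes, voom on recovered fragments, sample weights, a replicate block and leaving out each mouse. Added after seeing the data were no filter without MI replicate 2 and, for pairs, no pseudocount and leaving out each mouse. Python 3.11.15, pandas 2.3.3, NumPy 2.4.6 and matplotlib 3.10.9 did the rest.

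Near-identical relatives can share reads with Lyz2 (Lyz1), Csf2rb (Csf2rb2), the Fcgr genes and Ms4a6c, so these values are less certain. Exons on opposite strands are shared by Csf1r with Hmgxb3 (873 bases), Ms4a6c with BE692007 (1088), Ncf1 with Gtf2ird2 (408), Lcp1 with Gm15628 (311), Lcp2 with 4930469K13Rik (282), Plek with Cnrip1 (199), Cd52 with Crybg2 (172), Fcgr2b with Gm38204 (155) and Coro1a with Bola2 (26), and counting without strand would not separate them.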

Additional observations from a re-analysis of the deposited data

Results flagged for a closer look

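In 59 sets of 4 sham values (the 44 members, their sum and the summed marker lists), the mouse farthest from its neighbours was set against the range of its set. In 5 sets the share of that range taken by its gap was above Dixon's 95% limit for 4 samples, where chance gives about 2.95 (1 in 20). Coro1a was lowest in sham replicate 4, at 1.36 FPKM against 1.77 to 1.83 (share 0.878). Fcgr1 was lowest in sham replicate 3, at 0.525 against 0.758 to 0.772 (share 0.945). The neutrophil sum was highest in sham replicate 2, at 1.37 against 0.355 to 0.481 (share 0.877). The dendritic cell sum was lowest in sham replicate 1, at 2.27 against 2.37 to 2.39 (share 0.883), and the eosinophil and basophil sum was 0 in sham replicate 3 against 0.106 to 0.119 (share 0.891).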

How the results depend on the processing

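All tested members kept a positive log2 fold change under each of the 17 alternatives, from the lowest, 0.06 for Csf1, upward. The count of members higher at an adjusted p under 0.05 was 0 with all 7 mice, 30 of 30 with sample weights, which put nearly all weight on MI replicate 3 and called 66.8% of all genes higher, and 44 of 44 with no filter and without MI replicate 2, where 35.8% of all genes were called higher. The count at an unadjusted p was 29 of 30 (29.5% of all genes), and 44 of 44 in that last setting (40.8%). Leaving out each mouse gave 0 to 30 at an adjusted p, 30 being without MI replicate 2 (57.0% of all genes), and at an unadjusted p 10 without MI replicate 1 (9.18%) or 3 (8.33%) to 30 without MI replicate 2 (58.8%), with a median log2 fold change of 1.04 to 2.06. With 3 MI mice, 1 of them close to the sham mice, the spread within the group limits what can be called. The other settings gave 0 at an adjusted p, and at an unadjusted p 25 (voom, 28.0% of all genes) to 29 of 30 (29.2% with a pseudocount of 0.1, 36.2% for TPM, 19.0% for median log-ratio scaling and 25.1% without mitochondrial genes), with 27 for quantile scaling (16.7%), and 38 of 44 with no filter (20.6% of all genes). With the replicate number as a block, 26 of 30 members were higher at an unadjusted p (15.5% of all genes) and 0 at an adjusted p, and the median was 1.43. The deviations of same-numbered mice from their group means correlated at 0.074, -0.016 and -0.080. With MI replicate 2 far from the other MI mice, deviations in that group mostly reflect this gap. Whether same-numbered mice were paired cannot be told from these values. Rescaling to TPM moved the median of all genes from 0.21 to 0.42, quantile scaling to -0.03 and median log-ratio scaling to 0.00. With no pseudocount the log2 ratio of MI to sham turned for Itgax over Itgam (-0.11 to 0.61), Fcgr1 over Fcer1g (-0.12 to 0.54), Spi1 over Ptprc (0.36 to -0.31) and Adgre1 over Ptprc (0.58 to -0.22). Leaving out a mouse turned Csf2rb over Csf2ra (range -0.11 to 0.10), Fcgr2b over Fcgr3 (-0.0328 without MI replicate 2, highest 0.14) and Tyrobp over Fcer1g (0.0615 without MI replicate 2, lowest -0.11).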
